A study of Mus musculus with 2 samples.

Results

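The genes of oxidative phosphorylation were examined in lung group 2 innate lymphoid cells (ILC2s) of WT and Pac1–/– mice. They were chosen by symbol, as all genes beginning Ndufa, Ndufb, Ndufc, Ndufs, Ndufv, Sdh, Uqcr, Cox4i, Cox5, Cox6, Cox7, Cox8 or Atp5, together with the mitochondrial genes beginning mt-Nd, mt-Co, mt-Cyt or mt-Atp. Of 111 such symbols, 105 had at least 50 unique molecular identifiers (UMIs, each standing for 1 captured transcript) over both libraries, among 12427 genes that reached this minimum and 32285 features in all. These members comprised 92 nuclear and 13 mitochondrially encoded genes. The 6 symbols below the minimum were Cox4i2 (2 UMIs), Cox6a2 (5 UMIs) and Cox8b (1 UMI), which belong to tissue-restricted isoforms of complex IV, and Cox7b2, Cox8c and Ndufa4l2, with 0 UMIs in both libraries, a level that allows up to 3 UMIs. Just above the minimum were Cox7a1 (111 UMIs) and Cox6b2 (140 UMIs).

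The study asked how ILC2s respond when PAC1, the phosphatase made from Dusp2, is lost. WT and Pac1–/– mice were on the C57BL/6J background and age- and sex-matched young adults, the deletion was present in all cells of the animal, and no stimulus was given by the labels of these 2 libraries. Live lineage-negative cells that stained for CD90.2, ST2 and Sca-1 were sorted from lung, the cells of several mice of a genotype were mixed, and 1 droplet-based 3′ library was made per genotype. Cells were not assigned to mice, so no difference between genotypes had a replicate check, no test was possible, and every 95% interval below covers counting error only.

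Oxidative phosphorylation couples electron transport to ATP synthesis in the inner mitochondrial membrane. Complex I takes electrons from NADH and complex II from succinate, complex III passes them to cytochrome c, and complex IV reduces oxygen. Complexes I, III and IV pump protons, and complex V, the ATP synthase, uses the gradient. Most subunits are encoded in the nucleus and imported, whereas a small core set is encoded by mitochondrial DNA, transcribed as long precursors and cut into separate messengers. Resting lymphocytes, ILC2s among them, draw much of their ATP from it.

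Among the mitochondrial genes, mt-Atp8 and mt-Nd4l are shown because their readings ran against those of the gene they overlap (mt-Atp6 and mt-Nd4). Each pair is carried on a single messenger with both reading frames. Sequences are the sense strand from 5′ to 3′ as annotated by GENCODE release M21 on GRCm38, and capitals mark the bases shared with the downstream gene, 43 of 204 in mt-Atp8 and 7 of 297 in mt-Nd4l.
mt-Atp8, chrM:7766-7969, plus strand: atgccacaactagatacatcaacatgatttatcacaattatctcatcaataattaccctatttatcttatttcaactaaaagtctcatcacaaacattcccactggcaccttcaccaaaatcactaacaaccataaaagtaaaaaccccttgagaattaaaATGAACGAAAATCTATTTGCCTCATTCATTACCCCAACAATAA
mt-Nd4l, chrM:9877-10173, plus strand: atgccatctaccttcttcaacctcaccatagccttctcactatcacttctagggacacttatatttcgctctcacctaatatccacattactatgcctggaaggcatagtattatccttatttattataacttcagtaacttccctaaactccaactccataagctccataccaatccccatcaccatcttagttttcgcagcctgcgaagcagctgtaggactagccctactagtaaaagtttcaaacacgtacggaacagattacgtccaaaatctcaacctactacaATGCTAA

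Among the nuclear members, the binding motif of NRF1, an activator of respiratory chain genes, was searched in promoters because it is the best known shared element of this group. RefSeq promoter windows (GRCm38.p6), from 250 bases before to 50 bases after a gene's start, were matched by gene identifier or symbol for 77 of the 92 nuclear members, giving 82 windows. The NRF1 letters searched, spelled by the capitals in the windows below, read the same on both strands and were found in 8.54% of these windows and in 0.971% of all 32851 windows. The motif of YY1 (AAGATGGCG) was found in 9.76% of member windows and 1.40% of all, that of ETS factors such as GABPA (CCGGAAGT) in 5 of the 82 windows and 3.89% of all, and that of estrogen-related receptors (TCAAGGTCA) in 2.44% and 0.423%, with both strands searched and overlaps between motifs allowed. These matches describe letters and show no binding. Windows of 30 bases are given below for the 5 genes in which the NRF1 motif, in capitals, and 10 bases on each side lay wholly before the start in RefSeq. By the GENCODE coordinates used elsewhere, the window of Atp5g2 lies within the gene and that of Atp5k reaches into it, since these models start further upstream.
Ndufa11, complex I, chr17:56717692-56717721, plus strand: cctgcactgcGCGCATGCGCgcacgccttg
Cox6a1, complex IV, chr5:115349101-115349130, minus strand: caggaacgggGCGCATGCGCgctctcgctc
Atp5g2, complex V, chr15:102671070-102671099, minus strand: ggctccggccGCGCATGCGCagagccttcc
Atp5k, complex V, chr5:108434430-108434459, minus strand: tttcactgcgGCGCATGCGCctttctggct
Ndufaf4, assembly factor, chr4:24897960-24897989, plus strand: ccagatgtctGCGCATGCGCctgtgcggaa
These 5 genes did not share a direction between the libraries, since their log2 ratios relative to the median gene (defined below) were 0.081, −0.56, 0.33, −1.64 and −0.34 in the order shown.

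A barcode was retained if it had 500 or more genes and no more than 10% of its UMIs from mitochondrial DNA. This left 8394 of 10866 barcodes in WT and 7087 of 9495 in Pac1–/–, holding 54579034 and 58338886 UMIs. Median depth was 4186.5 UMIs in WT and 5577 in Pac1–/–. Dusp2, the targeted gene, gave 1419 UMIs in WT and 5 in Pac1–/–. At least 2 of the 9 ILC2 markers (Gata3, Il1rl1, Rora and others) were found in 99.2% of WT and 99.0% of Pac1–/– barcodes, which fitted the label. Among the markers of other cells, Cd8a, Il23r, S100a8 and Retnlg were at 0 UMIs in both libraries. The summed level of the 4 erythroid markers moved with genotype, at 67.3 CPM in WT and 228 CPM in Pac1–/–, and so did those of B cells (60.2 and 78.3 CPM), T cells (434 and 567 CPM), epithelium (53.9 and 79.0 CPM), mast cells and basophils (13.01 and 28.3 CPM) and macrophages and monocytes (2.49 and 7.20 CPM). The ILC2 markers summed to 6721 CPM in WT and 5849.7 CPM in Pac1–/–, and the part of these differences in the results was not tested. The libraries shared 29 barcodes, 15 of them among those retained. No doublet caller was run, and values without the 1801 WT and 1375 Pac1–/– barcodes above 2 times the median UMIs are given among the alternatives.

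The 13 mitochondrial members outweighed the 92 nuclear ones, and more so in the Pac1–/– library. Mitochondrial members took up 2.65% of all UMIs in WT and 3.48% in Pac1–/–, whereas nuclear members took up 1.49% and 1.39%. There were 1.77 (1.77 to 1.78) mitochondrial UMIs per nuclear UMI in WT and 2.50 (2.50 to 2.51) in Pac1–/–. Summed levels, in UMIs per 1000000 UMIs of a library (CPM), were 26453 CPM in WT and 34816 CPM in Pac1–/– for mitochondrial members and 14934 CPM in WT and 13906 CPM in Pac1–/– for nuclear members. As log2 ratios (Pac1–/– over WT), these differences came to 0.40 (0.39 to 0.40) and −0.10 (−0.11 to −0.098). A gene at the median of all 12427 tested genes had a log2 ratio of 0.19, and from here genotype ratios are given relative to it, which makes the sums 0.21 (0.21 to 0.21) and −0.29 (−0.29 to −0.29). A gene is counted as higher or lower where this relative log2 ratio was at least 0.32 above or below 0, a fixed rule of size and not a test, and where a gene's levels are followed by values in parentheses, these are its relative log2 ratio and, where given, the interval. In such sums, fewer cells of a kind and less RNA per cell cannot be told apart, and since the 13 members made up all mitochondrial UMIs and the barcode filter used these, it bounds the mitochondrial level. Relative to genes of the same annotated length, as described below, the mitochondrial sum was 0.12. With no limit on mitochondrial UMIs its log2 ratio before centring was 0.43, and with a limit of 5% it was 0.36.

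**Figure D1:**
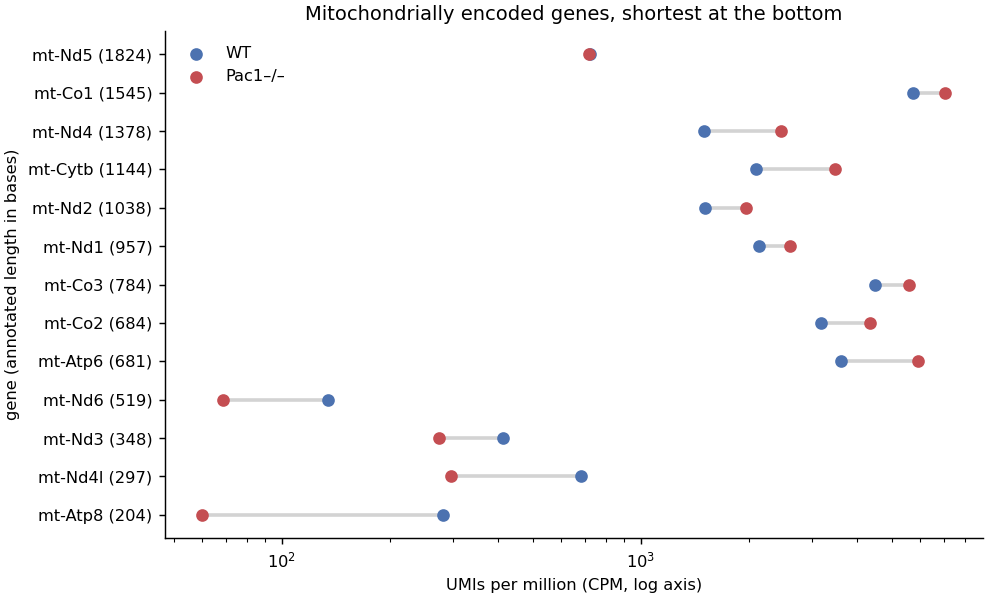
Level of each mitochondrially encoded gene in CPM (log axis) in the WT and Pac1–/– libraries, 1 library each, ordered by annotated length in bases. The 4 genes under 600 bases were lower in Pac1–/–, and of the 9 longer genes all but mt-Nd5 were higher.

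Mitochondrially encoded genes lay on both sides of the median gene. Of the 13, 3 were counted as higher in Pac1–/– (23.1%) and 4 as lower (30.8%), shares near the 21.7% higher and 24.5% lower of all tested genes. The 3 higher genes were mt-Cytb, the cytochrome b of complex III, mt-Atp6, the proton-channel subunit of complex V, and mt-Nd4, a proton-pumping subunit of complex I. The 4 lower genes were mt-Atp8, the small partner of mt-Atp6, and mt-Nd4l, mt-Nd3 and mt-Nd6 of complex I. A 3′ UMI count gives about 1 count per captured transcript whatever its length, so CPM were compared between genes without division by length, although capture can differ.

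The largest difference in the module was that of mt-Atp8, at 282 CPM in WT and 60.0 CPM in Pac1–/–, a relative log2 ratio of −2.42 (−2.47 to −2.37). Its overlapping neighbour mt-Atp6 (chrM:7927-8607, plus strand) was at 3605 CPM in WT and 5925 CPM in Pac1–/– and had a ratio of 0.53 (0.52 to 0.54). Readings of the pair thus differed in direction between libraries although both frames lie on the same messenger. mt-Atp6 also shares a base with mt-Co3, and these lay on the same side of the median gene. The pair of mt-Nd4l and mt-Nd4 was split like mt-Atp8 and mt-Atp6, with mt-Nd4l at 684 CPM in WT and 297 CPM in Pac1–/– (−1.39, −1.42 to −1.37) and mt-Nd4 (chrM:10167-11544, plus strand) at 1500.5 CPM in WT and 2457 CPM in Pac1–/– (0.52, 0.51 to 0.54). Reads within the shared bases could count for neither gene or be split, and some nuclear members named below also overlap another annotated gene on their strand, namely Ndufa13, Ndufb2, Cox4i1, Cox7c, Atp5b, Atp5g2 and Atp5o, as do mt-Nd1 and mt-Nd2. mt-Nd3 (chrM:9459-9806, plus strand) was at 415 CPM in WT and 274 CPM in Pac1–/–, a ratio of −0.78 (−0.81 to −0.75). mt-Nd6 (chrM:13552-14070, minus strand), the only mitochondrial member on the other strand and the one of lowest level in WT, was at 134 CPM in WT and 68.8 CPM in Pac1–/– (−1.15, −1.21 to −1.10). mt-Cytb (chrM:14145-15288, plus strand) was at 2093 CPM in WT and 3474 CPM in Pac1–/– (0.54, 0.53 to 0.55), so its order with mt-Nd1 turned over between libraries.

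The catalytic subunits of complex IV were the most abundant group and moved little. mt-Co1, which holds the oxygen-reducing site, was at 5717 CPM in WT and 7052 CPM in Pac1–/– and had the highest level of all members in both libraries. mt-Co2 was at 3167 CPM in WT and 4349.9 CPM in Pac1–/– and mt-Co3 at 4495 CPM in WT and 5585 CPM in Pac1–/–. Their relative log2 ratios were 0.12, 0.27 and 0.13, above the median gene but by less than 0.32. Of the remaining complex I genes, mt-Nd1 and mt-Nd2 had ratios near these, whereas mt-Nd5 lay below the median gene. mt-Nd1 was at 2128 CPM in WT and 2596 CPM in Pac1–/– (0.099). mt-Nd2 was at 1509 CPM in WT and 1961 CPM in Pac1–/– (0.19) and mt-Nd5 at 724 CPM in WT and 716 CPM in Pac1–/– (−0.20). In the order of levels in WT, mt-Nd2 (95% Poisson interval 1499 to 1519) and mt-Nd4 (1490.2 to 1511) could not be separated by counting error, and in Pac1–/– mt-Nd4 was above mt-Nd2.

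**Figure D2:**
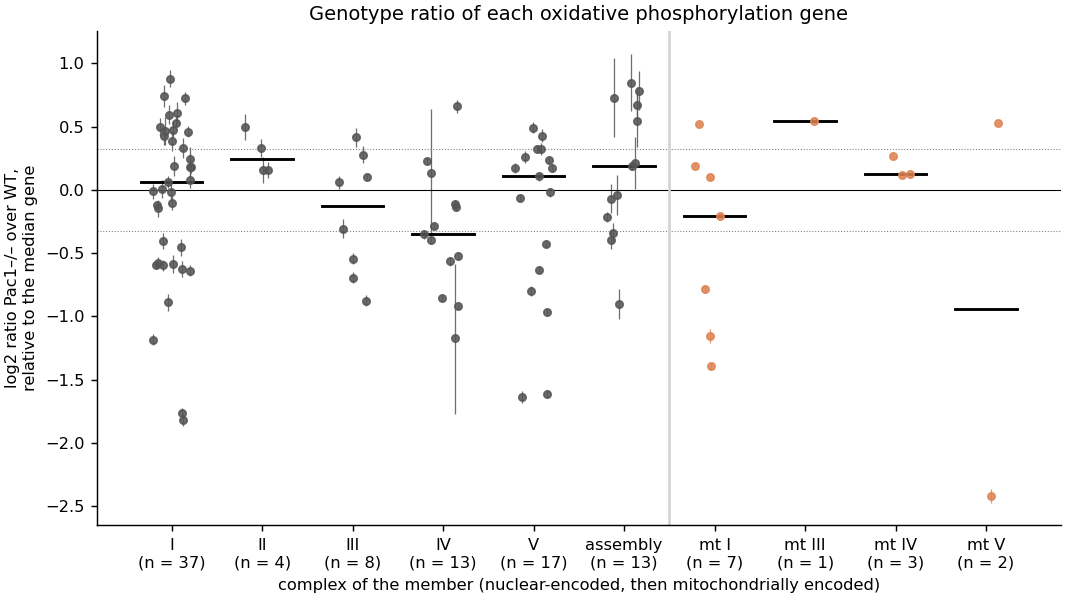
Log2 ratio of Pac1–/– over WT, relative to the median gene, for each of the 105 members, by complex and genome, with 95% counting intervals, black bars at the median of each group and dotted lines at 0.32 above and below 0. Members of the same complex lie on both sides of 0 in all groups but complex II, mitochondrial complex III and mitochondrial complex IV.

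Nuclear members also spread to both sides, with 25 of 92 higher in Pac1–/– (27.2%) and 31 lower (33.7%), against the 21.7% and 24.5% of all tested genes. Their median was 0.032, with quartiles of −0.53 and 0.33, wider than those of all tested genes, −0.31 and 0.28. Members were measured at greater depth than most genes (median 12858.5 against 1572 UMIs over both libraries), and among genes with at least 500 UMIs the background shares were 19.1% and 21.9%. More than 2-fold lower were 6 nuclear members (6.52%) and 5.09% of all tested genes, and with at least 500 UMIs 5 of 89 members (5.62%) and 2.78% of genes. No nuclear member was more than 2-fold higher, where 2.08% of all tested genes and 0.742% of those with at least 500 UMIs were.

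Complex I summed to 3635 CPM in WT and 3416 CPM in Pac1–/– over its 37 nuclear genes and to 7094 CPM in WT and 8370.4 CPM in Pac1–/– over its 7 mitochondrial ones. Among the former, the core subunits that carry the flavin and the iron–sulfur clusters were all above the median gene in Pac1–/–, whereas accessory subunits were split. This grouping by textbook role, here and for complexes III and V, was made after the values were seen and describes them. The 7 core genes summed to 242 CPM in WT and 371 CPM in Pac1–/–, and their relative log2 ratios ran from 0.18 to 0.61. Ndufs7, which holds the last iron–sulfur cluster before ubiquinone, was at 43.6 CPM in WT and 70.1 CPM in Pac1–/– (0.50, 0.42 to 0.57). Ndufv2, of the NADH-oxidizing tip, was at 37.7 CPM in WT and 56.2 CPM in Pac1–/– (0.39, 0.31 to 0.47). Of the 30 accessory genes, 8 were higher and 12 lower, where 21.7% and 24.5% of all tested genes were. The median of these accessory genes was −0.059.

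The accessory genes held both extremes of the nuclear set. Ndufa3 (chr7:3617373-3620327, plus strand) was at 232 CPM in WT and 75.1 CPM in Pac1–/–, a relative log2 ratio of −1.82 (−1.87 to −1.77), the lowest of all nuclear members. Ndufb1-ps (chr12:101968090-101977068, minus strand), annotated as a noncoding gene from a bidirectional promoter although its symbol is that of a complex I subunit, was at 353 CPM in WT and 119 CPM in Pac1–/– (−1.76, −1.80 to −1.72). Ndufa1 (chrX:37187588-37191163, minus strand), a small X-linked subunit of the membrane arm, was at 244 CPM in WT and 122 CPM in Pac1–/– (−1.18, −1.23 to −1.14). Relative to the median gene, these genes were more than 2-fold lower in Pac1–/–. At the other end, Ndufab1 (chr7:122085403-122101886, minus strand), the mitochondrial acyl carrier protein that also sits in complex I, was at 44.4 CPM in WT and 93.0 CPM in Pac1–/– (0.88, 0.81 to 0.95). Ndufa8 was at 30.9 CPM in WT and 58.9 CPM in Pac1–/– (0.74, 0.66 to 0.83) and Ndufb5 at 82.7 CPM in WT and 156 CPM in Pac1–/– (0.72, 0.67 to 0.78). The nuclear genes of complex I with the highest mean level over both libraries lay between, Ndufa13 at 264 CPM in WT and 277 CPM in Pac1–/– (−0.12) and Ndufa2 at 300.0 CPM in WT and 226 CPM in Pac1–/– (−0.60).

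All 4 subunits of complex II, the only complex with no mitochondrial gene, lay above the median gene in Pac1–/–, by 0.16 to 0.50. Counted as higher were 2 of them, against 21.7% of all tested genes. Sdha, the flavoprotein that oxidizes succinate, was at 68.9 CPM in WT and 87.5 CPM in Pac1–/– (0.16, 0.097 to 0.22). Sdhb, its iron–sulfur partner, was at 48.4 CPM in WT and 69.4 CPM in Pac1–/– (0.33, 0.26 to 0.40). Complex II was the least abundant complex, with 165 CPM in WT and 225 CPM in Pac1–/– over its 4 genes.

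Complex III summed to 1303 CPM in WT and 1318 CPM in Pac1–/– over its 8 nuclear genes. Of these, 1 was higher and 3 lower, where 21.7% and 24.5% of all tested genes were. Uqcrfs1, the Rieske iron–sulfur protein, was at 57.5 CPM in WT and 79.3 CPM in Pac1–/– (0.28, 0.21 to 0.34). Uqcrh, the hinge protein and the most abundant nuclear member in Pac1–/–, was at 515 CPM in WT and 631 CPM in Pac1–/– (0.10, 0.082 to 0.13). The small subunit gene Uqcr10 was at 189 CPM in WT and 133 CPM in Pac1–/– (−0.69, −0.74 to −0.65). The 5 small subunits had a median of −0.55, with Uqcrh and 1 other above the median gene, and the 3 core and Rieske genes one of 0.28, with Uqcrc1 below it at −0.31.

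By its sum, complex IV was the complex whose nuclear genes lay lowest in Pac1–/–, opposite to its mitochondrial genes. Of its 13 nuclear members, 7 were lower and 1, Cox5a, was higher, where 24.5% and 21.7% of all tested genes were. The summed relative log2 ratio of these members was −0.39 (−0.40 to −0.38) against 0.16 (0.15 to 0.16) for mt-Co1, mt-Co2 and mt-Co3. Cox7c was at 680.2 CPM in WT and 409 CPM in Pac1–/– (−0.92, −0.95 to −0.90) and Cox6c at 663 CPM in WT and 417 CPM in Pac1–/– (−0.86, −0.88 to −0.83), and these small membrane subunits were its most abundant nuclear genes in WT. Cox4i1, the regulatory subunit and the only Cox4i gene above the minimum, was at 439 CPM in WT and 584 CPM in Pac1–/– (0.22, 0.20 to 0.25). Ndufa4, first described in complex I and since placed in complex IV, was at 237 CPM in WT and 249 CPM in Pac1–/– (−0.11). Of isoform pairs, the ubiquitous form was read almost alone. Cox6a1 was at 252 CPM in WT and 194 CPM in Pac1–/– (−0.56), with 5 UMIs for its muscle form Cox6a2. Cox7a2 was at 362 CPM in WT and 287 CPM in Pac1–/– (−0.52), whereas the muscle form Cox7a1 was at 1.32 CPM in WT and 0.669 CPM in Pac1–/–. Cox6b1 was at 305 CPM in WT and 264 CPM in Pac1–/– (−0.40), whereas the testis form Cox6b2 was at 1.10 CPM in WT and 1.37 CPM in Pac1–/–. Cox8a was at 556 CPM in WT and 519 CPM in Pac1–/– (−0.29), with 1 UMI for Cox8b and 0 for Cox8c.

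Complex V was the most abundant complex among the nuclear genes, at 5128 CPM in WT and 4666 CPM in Pac1–/–, and its parts went different ways. Against 21.7% of all tested genes, all 3 genes for the rotating c-ring (Atp5g1, Atp5g2 and Atp5g3) were higher in Pac1–/–. They encode the same mature protein. Atp5g2 was the most abundant of them, at 317 CPM in WT and 453 CPM in Pac1–/– (0.33), followed by Atp5g1 at 117 CPM in WT and 188 CPM in Pac1–/– (0.49) and Atp5g3 at 98.5 CPM in WT and 151 CPM in Pac1–/– (0.43). The 4 stalk genes, Atp5f1, Atp5h, Atp5j and Atp5o, lay 0.17 to 0.32 above the median gene, Atp5h being at 363 CPM in WT and 486 CPM in Pac1–/–. In the catalytic head, Atp5a1 and Atp5b, the alpha and beta subunits, were at 226 CPM in WT and 254 CPM in Pac1–/– (−0.018) and at 322 CPM in WT and 352 CPM in Pac1–/– (−0.061). Both ratios were thus close to that of the median gene. Atp5e, the small epsilon subunit and the most abundant nuclear member in WT, was at 1041 CPM in WT and 608 CPM in Pac1–/– (−0.96, −0.98 to −0.94).

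All 5 small membrane subunits of complex V (Atp5k, Atp5j2, Atp5l, Atp5md and Atp5mpl) were lower in Pac1–/–, against 24.5% of all tested genes. Several of these subunits help the enzyme to pair into dimers. The 5 genes summed to 1803 CPM in WT and 1084 CPM in Pac1–/–. Atp5k (chr5:108433244-108434448, minus strand), the e subunit, was at 229 CPM in WT and 83.8 CPM in Pac1–/– (−1.64, −1.69 to −1.59). Atp5md (chr19:47083464-47090647, minus strand), also known as DAPIT, was at 512 CPM in WT and 190.3 CPM in Pac1–/– (−1.62, −1.65 to −1.58). The other 3 lay between −0.80 and −0.43.

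Assembly and stability factors, 13 genes at 671 CPM in WT and 767 CPM in Pac1–/–, lay on both sides as well. Of the 13, 5 were higher and 3 lower, where 21.7% and 24.5% of all tested genes were. Ndufaf1 (0.85, 0.62 to 1.08) and Ndufaf3 (0.67, 0.52 to 0.81), needed to build complex I, and Sdhaf4 (0.78, 0.63 to 0.94), needed to mature Sdha, were among the 6 highest ratios of nuclear members with at least 500 UMIs. Their levels were low, Ndufaf1 at 4.32 CPM in WT and 8.86 CPM in Pac1–/–, Ndufaf3 at 10.8 CPM in WT and 19.5 CPM in Pac1–/– and Sdhaf4 at 9.03 CPM in WT and 17.7 CPM in Pac1–/–. The 2 most abundant were Cox7a2l at 298 CPM in WT and 387 CPM in Pac1–/– (0.19), and Sdhaf1 at 171 CPM in WT and 168 CPM in Pac1–/– (−0.21).

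**Figure D3:**
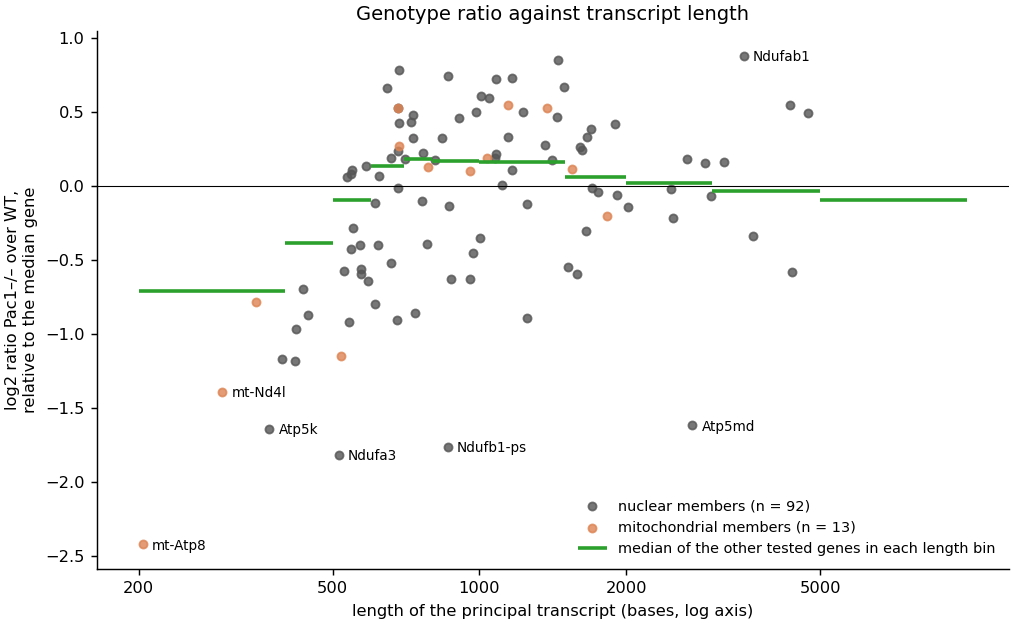
Log2 ratio of Pac1–/– over WT, relative to the median gene, against the annotated length of the principal transcript (bases, log axis) for the 92 nuclear and 13 mitochondrial members, with green bars at the median of all other tested nuclear genes in each length bin. Most members under 600 bases lie below 0, and lower than the bars, which step down to −0.71.

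Annotated transcript length moved with the genotype ratio, a relation looked for after the data were seen. Of the 4 mitochondrial genes annotated at under 600 bases, all were counted as lower in Pac1–/–, and of the 9 longer ones 3 were higher and none lower. For mt-Atp8 and mt-Nd4l the annotated length is that of the gene alone, shorter than the messenger shared with mt-Atp6 or mt-Nd4. All values by length for mitochondrial genes use these annotated lengths, so they do not describe messenger length for these pairs. Of the 19 nuclear members whose principal transcript was under 600 bases, 14 were lower and none higher. Of the 73 longer ones, 17 were lower and 25 higher. Among all tested genes of any length, 24.5% were lower and 21.7% higher. Genes outside the module were lower in the shortest bins too, but less so than the members. The other tested nuclear genes had a median of −0.71 under 400 bases (n = 44), −0.39 from 400 to 500 bases (n = 96), −0.096 from 500 to 600 bases (n = 129) and 0.16 from 1000 to 1500 bases (n = 1237), and from there it fell again, to −0.092 at 5000 bases or more (n = 2208). The nuclear members had medians of −1.40 (n = 2), −0.92 (n = 4) and −0.43 (n = 13) in the 3 shortest bins. Short transcripts were common in the module, with 20.7% of nuclear members under 600 bases against 2.35% of all tested genes. Over the nuclear members the ratio and the length had a Spearman rho of 0.36 with the longest principal transcript and 0.53 with the median length of a gene's coding transcripts, and over the 13 mitochondrial genes 0.53, whereas over all 12403 tested nuclear genes with a length it was −0.14. These points share libraries, so the values are descriptions. Lengths differ between annotated transcripts, as for Atp5md (2733 bases for the principal transcript and a median of 362).

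Relative to genes of the same length bin, 17 nuclear members were higher in Pac1–/– and 27 lower, where 20.5% and 24.1% of all tested genes were. Ratios then ran from −1.93 to 0.91, against −1.82 to 0.88 relative to the median gene. On that scale the 7 core genes of complex I had a median of 0.32 and the 5 small membrane subunits of complex V one of −0.80, and all 7 stayed above and all 5 below genes of their length, although only 4 of each were still past 0.32. Of the 3 c-ring genes, all above on that scale, 1 was still counted as higher, as was 1 of the 4 genes of complex II. Among members of 600 bases or more, the sum of the nuclear genes was 9531 CPM in WT and 9932 CPM in Pac1–/– and that of the mitochondrial genes 24938 CPM in WT and 34116 CPM in Pac1–/–, so their log2 ratios before centring were 0.059 and 0.45. Before centring, the direction for the nuclear sum thus turned over from that of all 92 members, whereas relative to the median gene it did not, at −0.13 for the longer members and −0.29 for all 92. There were 2.62 mitochondrial UMIs per nuclear UMI among these longer members in WT and 3.44 in Pac1–/–. Among the shorter members the ratio went the other way, 0.280 in WT and 0.176 in Pac1–/–. The part of transcript length in the genotype ratios was not tested, and with 1 library per genotype a property of the library and the genotype cannot be told apart.

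**Figure D4:**
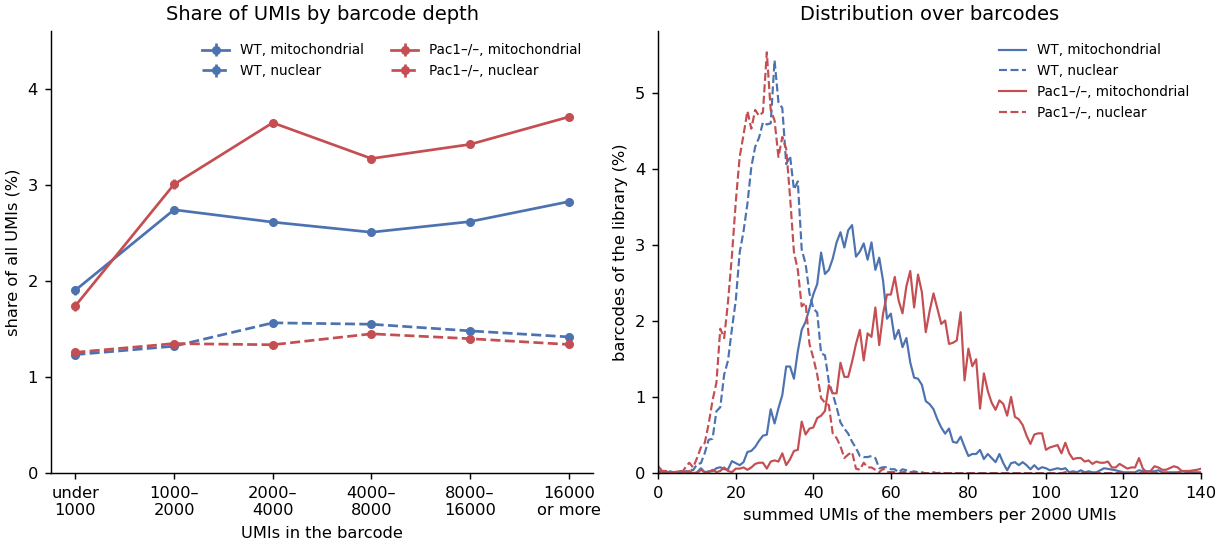
Left, share of all UMIs (%) from mitochondrial (solid) and nuclear (dashed) members by barcode depth in WT and Pac1–/–, with 95% binomial intervals. Right, distribution over barcodes of their summed UMIs after thinning to 2000 UMIs. The mitochondrial share was higher in Pac1–/– in every depth bin but the lowest.

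Across barcodes, the summed level of the mitochondrial members was shifted between the libraries from the 5th to the 95th percentile. Each barcode was thinned to 2000 UMIs, and the 914 WT and 617 Pac1–/– barcodes with fewer were left out. The median barcode held 50.5 mitochondrial member UMIs in WT (5th to 95th percentile 31 to 78) and 67 in Pac1–/– (40 to 103). Nuclear members gave 30 UMIs in WT (18 to 46) and 28 in Pac1–/– (16 to 42). The variance divided by the mean was 4.69 and 6.42 for mitochondrial members and 2.37 and 2.27 for nuclear members, and this ratio rises with the mean where cells differ. Within a library the 2 sums were nearly unrelated across barcodes, with a Pearson correlation of 0.061 over 7480 WT barcodes and 0.019 over 6470 Pac1–/– barcodes, and barcodes of a library share its depth and free RNA.

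Barcode depth changed the comparison at its lower end. In barcodes under 1000 UMIs, mitochondrial members took up 1.91% of UMIs in WT and 1.74% in Pac1–/–, the reverse of the order at other depths. From 1000 to 2000 UMIs the shares were 2.74% and 3.01%. In the 4 deeper bins the mitochondrial log2 ratio before centring was 0.38 to 0.48 and the nuclear one −0.23 to −0.081. The module's split by genome was thus read in all bins of 2000 UMIs or more.

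To compare the module with cytokine status, barcodes thinned to 2000 UMIs were divided by the presence of an Il5 UMI, the transcript of the type 2 cytokine IL-5. An Il5 UMI was found in 2823 of 7480 WT barcodes (37.7%, 36.6 to 38.9) and in 1478 of 6470 Pac1–/– barcodes (22.8%, 21.8 to 23.9), and without thinning in 53.1% and 39.5%. Median depth before thinning was 5487 UMIs with and 4170 without Il5 in WT, and 7478.5 and 5590.5 in Pac1–/–. Among barcodes with at least 3 B cell markers, which should lack Il5, 3 of 10 in WT (30.0%, 6.67 to 65.2; median 4297.5 UMIs) and 1 of 23 in Pac1–/– (4.35%, 0.110 to 21.9; median 4652 UMIs) had one. Background from free RNA was thus poorly bounded in WT, and the barcodes without Il5 can include cells that express it.

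Module levels differed little with Il5. In WT, nuclear members summed to 14680.1 CPM in barcodes with Il5 and 15764 CPM in those without, and mitochondrial members to 25439.6 and 26297 CPM. In Pac1–/– the nuclear sums were 13145 and 14372 CPM and the mitochondrial sums 33250.3 and 34565 CPM. Both sums were thus slightly lower with Il5 in both libraries, by log2 ratios of −0.10 (−0.12 to −0.091) and −0.048 (−0.057 to −0.038) in WT and of −0.13 (−0.14 to −0.11) and −0.056 (−0.066 to −0.046) in Pac1–/–. In Pac1–/– the mitochondrial ratio was −0.0018 (−0.010 to 0.0068) with Il5 status from the full counts, no longer apart from 0, and −0.12 with 2 or more Il5 UMIs against 0. The median tested gene had ratios of −0.17 in WT and −0.19 in Pac1–/–, so relative to it the sums lay above 0, at 0.072 and 0.13 in WT and 0.063 and 0.14 in Pac1–/–. Over genes with at least 500 thinned UMIs that median was −0.073 and −0.095, which would place the nuclear sums below it and the mitochondrial sums above it. By complex, nuclear sums lay on both sides of the median of all tested genes. Complex I, complex II and assembly factors were at −0.031, −0.12 and −0.063 in WT and −0.079, −0.035 and −0.028 in Pac1–/–. Intervals included 0 for complex II in both libraries and for assembly factors in Pac1–/–. Complexes III, IV and V were at 0.094, 0.094 and 0.14 in WT and 0.11, 0.12 and 0.13 in Pac1–/–. Before centring these were −0.081, −0.081 and −0.030 in WT and −0.083, −0.075 and −0.063 in Pac1–/–. They were thus close to the median of genes with at least 500 thinned UMIs, with complexes III and IV just below it in WT. The 9 ILC2 markers were higher with Il5 as well, at 7525 against 5783 CPM in WT and 6894 against 5249 CPM in Pac1–/–, and markers of other cells moved both ways. Endothelial markers were at 56.7 with against 29.4 CPM without Il5 in WT and 55.5 against 38.0 CPM in Pac1–/–. Epithelial markers were at 33.5 with against 134 CPM without Il5 in WT (137 and 102 CPM in Pac1–/–), B cell markers at 45.3 against 79.8 CPM in WT and 48.7 against 106 CPM in Pac1–/–, and erythroid markers at 46.7 against 299 CPM in Pac1–/– (63.1 and 43.2 CPM in WT). The part of these markers in the Il5 contrasts was not tested.

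**Figure D5:**
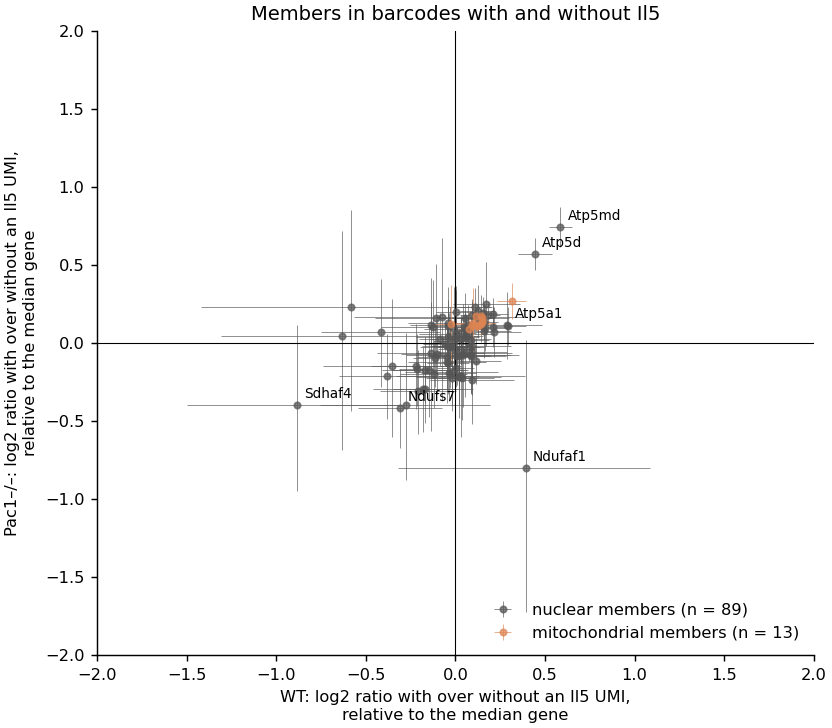
Log2 ratio of barcodes with over without an Il5 UMI, relative to the median gene, in WT (x axis) and Pac1–/– (y axis) for the 89 nuclear and 13 mitochondrial members with at least 500 UMIs, with 95% counting intervals. Atp5md and Atp5d stand apart at the upper right, and the mitochondrial genes gather just above 0.

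Single members were mostly close to the median gene in this contrast. In WT, 3 of 89 nuclear members were at least 0.32 above the median gene with Il5 and 6 at least 0.32 below it, where 15.8% and 15.7% of all tested genes were. In Pac1–/– these were 2 and 4 of 90, where 17.4% and 17.8% of tested genes were. Most members were counted more deeply than most tested genes, and counting error spreads the ratios of sparse genes. No share at matched depth was taken for these counts, so how far they differ from the background cannot be told. None of the 13 mitochondrial genes passed that mark in either library at 2000 UMIs, and 1 did so upward in some other settings. The nuclear counts also moved with the settings, those lower in Pac1–/– to 14 after thinning to 1000 UMIs and to 12 with 2 or more Il5 UMIs against 0. The contrast had the same sign in both libraries for 57 of 89 nuclear members (64.0%), for 12 of 13 mitochondrial members and for 72.5% of 9149 genes compared. Among the mitochondrial genes under 600 bases were both the highest contrast and, in WT, the lowest (mt-Nd3 and mt-Atp8, given below), and 3 of the 4 lay above the median gene in WT and 4 in Pac1–/–. Summed relative ratios were 0.12 in WT and 0.17 in Pac1–/– for those under 600 bases and 0.13 and 0.14 for the longer ones.

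A pair of complex V genes was higher with Il5 in both libraries by more than 0.32, which is 2.25% of 89 nuclear members. Of all genes compared, 10.2% were, and of those with at least 500 UMIs over both libraries 10.3%, shares that were also not matched in depth to the members. Atp5md was at 621 against 467 CPM (with against without) in WT, a relative log2 ratio of 0.59 (0.52 to 0.65), and at 250.3 against 171 CPM in Pac1–/–, a ratio of 0.75 (0.62 to 0.87). Atp5d, the delta subunit of the catalytic head, was at 272 against 225 CPM in WT (0.45, 0.35 to 0.54) and at 377 against 289 CPM in Pac1–/– (0.57, 0.47 to 0.67). These genes were higher with Il5 before centring too. Atp5md was thus lower in Pac1–/– as a library and higher in Il5-positive barcodes within each library, and Il5-positive barcodes were fewer in Pac1–/–. Among barcodes with Il5, Atp5md was also lower in Pac1–/– (621 CPM in WT and 250.3 CPM in Pac1–/–), as among those without (467 and 171 CPM). The part of Il5 status in its genotype ratio was not tested. Smaller contrasts of the same sign in both libraries were those of Atp5b (0.21 and 0.19), Atp5a1 (0.29 and 0.11), Uqcrfs1 (0.29 and 0.12) and Ndufb2 (0.17 and 0.25), in WT and Pac1–/– in turn. Before centring, those of Atp5b, Atp5a1 and Uqcrfs1 were below 0 in Pac1–/– and that of Ndufb2 was just below 0 in WT. The relative intervals of Ndufb2 included 0 in both libraries. In Pac1–/–, so did those of Atp5a1 (−0.0095 to 0.24) and Uqcrfs1 (−0.10 to 0.33).

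Of members with the same sign in both libraries and at least 500 UMIs, the 6 lowest with Il5 were in complex I and among assembly factors. Ndufs7 was at 39.1 against 54.6 CPM in WT (−0.31, −0.54 to −0.076) and at 51.8 against 78.7 CPM in Pac1–/– (−0.41, −0.67 to −0.16). Ndufv2 was at 29.8 against 43.8 CPM in WT (−0.38, −0.65 to −0.12) and at 46.7 against 61.7 CPM in Pac1–/– (−0.21, −0.49 to 0.058), and Ndufa12 had ratios of −0.21 and −0.31. Of these, only the intervals of Ndufs7 lay below 0 in both libraries. Sdhaf4 (−0.88, −1.50 to −0.31, and −0.40, −0.95 to 0.12, in WT and Pac1–/– in turn), Ndufaf3 (−0.27 and −0.39) and Sdhaf2 (−0.36 and −0.15) rested on few UMIs, 32 for Sdhaf4 in WT barcodes with Il5. Among mitochondrial genes, mt-Nd3 had the highest contrast, at 369.8 against 336 CPM in WT (0.31, 0.23 to 0.40) and 271 against 256 CPM in Pac1–/– (0.27, 0.16 to 0.39), and mt-Atp8 the lowest in WT, at 258 against 296 CPM (−0.022, −0.11 to 0.070).

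Other genes of mitochondrial function were counted in the same way, in 6 lists drawn by function. By the same count in Pac1–/– (background 21.7% higher and 24.5% lower), the citric acid cycle and pyruvate dehydrogenase list had 3 of 16 higher and 3 lower, carriers and electron donors 2 of 14 higher and 2 lower, regulators of mitochondrial biogenesis 2 of 15 higher and 1 lower, factors that handle mitochondrial RNA 3 of 16 higher and 2 lower, chaperones and proteases 3 of 11 higher and 0 lower, and further assembly factors 8 of 28 higher and 3 lower. Their median relative log2 ratios lay between −0.054 and 0.15, close to that of the median gene. Among the single genes, Fh1, fumarase, was at 12.5 CPM in WT and 20.4 CPM in Pac1–/– (0.52) and Suclg1, of succinyl-CoA ligase, at 30.8 CPM in WT and 49.2 CPM in Pac1–/– (0.49), whereas its partner Suclg2 was at 37.9 CPM in WT and 25.5 CPM in Pac1–/– (−0.76). Slirp, which stabilizes mitochondrial messengers together with Lrpprc, was at 41.8 CPM in WT and 24.9 CPM in Pac1–/– (−0.93), and Lrpprc itself at 23.8 CPM in WT and 26.7 CPM in Pac1–/– (−0.021). Cox17, the copper chaperone of complex IV, was at 195 CPM in WT and 102 CPM in Pac1–/– (−1.12), and Tmem70, which helps to assemble complex V, at 7.55 CPM in WT and 15.4 CPM in Pac1–/– (0.84). The prohibitins Phb and Phb2 were at 21.3 CPM in WT and 34.1 CPM in Pac1–/– (0.49) and at 47.9 CPM in WT and 77.8 CPM in Pac1–/– (0.51). The phosphate carrier Slc25a3 was at 921 CPM in WT and 748 CPM in Pac1–/– (−0.49), and with Il5 it was 0.61 above the median gene in WT and 0.69 in Pac1–/–. Cycs, cytochrome c, was 0.55 and 0.48 above it with Il5, while its genotype ratio was −0.011. These 2 were picked for their values from the 14 carriers and electron donors. The median Il5 contrast of that list was −0.0050 in WT (n = 13 measured) and 0.038 in Pac1–/– (n = 14). In each library, 4 of the list were past 0.32 above the median gene and 2 below. Of all tested genes, 15.8% were that far above and 15.7% below in WT, and 17.4% and 17.8% in Pac1–/–.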

How the data were processed

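Live lung ILC2s of WT and Pac1–/– mice were profiled with the Chromium 3′ v3.1 kit. The authors ran Cell Ranger on the mm10 genome and deposited raw UMI counts for each gene in each barcode. The version is 6.1.1 in the submitters' processing notes and 4.0.0 in the file header, and the annotation release was not given in the sources used here. No normalization had been applied. Reads that map to several places are lost in such counting, so members with close copies or pseudogenes can be undercounted.

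The tools were scipy 1.17.1, numpy 2.4.6, pandas 2.3.3 and matplotlib 3.10.9, run under Python 3.11.15, and the ratio intervals were tested on simulated data. UMIs were summed over retained barcodes and divided by the library total. Intervals at 95% were exact: Poisson for CPM, conditional binomial for ratios and Clopper-Pearson for shares. Thinning used a fixed random seed. Coordinates and lengths came from GENCODE M21 (GRCm38), matched on gene identifier.

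Members and lists were chosen with earlier results of these data known. Named genes were the 13 mitochondrial ones, the 2 most abundant nuclear genes per complex, the 6 highest and 6 lowest genotype ratios and Il5 contrasts (at least 500 UMIs, the latter with the same sign in both libraries), the isoform families, and up to 6 genes per further list with a ratio past 0.32. Other genes were named after their values were seen. Alternatives were other limits on mitochondrial UMIs and genes, totals, depths, Il5 rules and barcode selections, and, added after the data were seen, scaling by transcript length.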

Additional observations from a re-analysis of the deposited data

Results flagged for a closer look

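More barcodes of the Pac1–/– library than of WT had over 10% mitochondrial UMIs, and these barcodes enter the comparisons above only where another limit or none is named. They were 441 of 9495 Pac1–/– barcodes (4.64%, exact binomial interval 4.23 to 5.09) and 171 of 10866 WT barcodes (1.57%, 1.35 to 1.83). Of these, 298 in Pac1–/– (3.14%) and 69 in WT (0.635%) had 500 or more genes and were removed by this limit alone. The barcodes over the limit were shallow, with a median of 1038 UMIs in Pac1–/– and 796 in WT. In them mitochondrial members took up 15.7% of UMIs in Pac1–/– and 13.2% in WT, whereas nuclear members took up 0.595% and 0.499%, less than in the retained barcodes (1.39% and 1.49%). With 1 library per genotype, this difference had no replicate check.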

How the results depend on the processing

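Values that left the counting interval of the main value are given here, before centring unless said to be relative. The genotype log2 ratio was −0.090 (nuclear) and 0.41 (mitochondrial) with totals that leave out mitochondrial UMIs, −0.11 (nuclear) and 0.43 (mitochondrial) with a limit of 20%, −0.11 (nuclear) and 0.43 (mitochondrial) with no limit, and −0.12 (nuclear) and 0.40 (mitochondrial) after thinning to 2000 UMIs. It was −0.12 (nuclear) and 0.39 (mitochondrial) without barcodes above 2 times the median UMIs, −0.29 (nuclear) and 0.21 (mitochondrial) relative to the median gene, −0.30 (nuclear) and 0.12 (mitochondrial) relative to genes of the same transcript length, and 0.059 (nuclear) and 0.45 (mitochondrial) over members of 600 bases or more. With other choices it was 0.36 (mitochondrial) with a mitochondrial limit of 5%, and 0.40 (mitochondrial) with at least 1000 genes per barcode. Only the restriction to members of 600 bases or more, chosen after the data were seen as was the scaling by length, reversed a direction, that of the nuclear sum before centring. Relative to the median gene the same sum was −0.13, and the shorter members left out were lower in Pac1–/–. The Il5 log2 ratio was −0.032 (WT mitochondrial) with a limit of 20%, −0.081 (WT mitochondrial) and −0.082 (Pac1–/– mitochondrial) without barcodes above 2 times the median UMIs, −0.088 (WT nuclear) and −0.069 (WT mitochondrial) after thinning to 1000 UMIs, and −0.16 (WT nuclear), −0.090 (WT mitochondrial), −0.22 (Pac1–/– nuclear) and −0.12 (Pac1–/– mitochondrial) for 2 or more Il5 UMIs against 0. In other settings it was −0.086 (WT nuclear), −0.032 (WT mitochondrial), −0.087 (Pac1–/– nuclear) and −0.0018 (Pac1–/– mitochondrial) with Il5 status from the full counts, −0.035 (WT mitochondrial), −0.10 (Pac1–/– nuclear) and −0.043 (Pac1–/– mitochondrial) after thinning to 3000 UMIs, and −0.074 (WT mitochondrial), −0.15 (Pac1–/– nuclear) and −0.083 (Pac1–/– mitochondrial) in barcodes with at least 2 ILC2 markers and at most 1 of any other type. No Il5 direction reversed in these settings, and with Il5 status from the full counts the interval of the mitochondrial ratio in Pac1–/– included 0 (−0.010 to 0.0068). The causes of these shifts were not tested. Counts of members past 0.32 between genotypes stayed within 1.5 times the main count in all 9 settings each. Those of the Il5 contrasts did not in all 8 of theirs. Nuclear members higher with Il5 numbered 3 to 6 in WT and 2 to 5 in Pac1–/–, and those lower 5 to 10 in WT and 2 to 14 in Pac1–/–. The 14 came with thinning to 1000 UMIs, and 2 or more Il5 UMIs against 0 moved each of these counts by over 1.5 times. Mitochondrial members higher numbered 0 or 1 and none was lower. No paired analysis was possible because each genotype had 1 library, and for the same reason no replicate could be left out. Counting error does not limit the abundant members, but for Ndufaf1, Sdhaf4, Cox7a1 and Cox6b2 depth limits the values.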
